A study of Mus musculus with 11 samples.

Results

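Complex I (NADH:ubiquinone oxidoreductase) genes were followed through 3 stages of a mouse mammary cancer that depends on the oncogene Wnt1. The members were chosen with earlier results of these data known. They were all genes of the array whose symbol starts with Nduf, a rule that uses names and no measured value. They were 45 of 23835 named genes: 34 subunits of the complex, 8 assembly factors (Ndufaf1 to Ndufaf8) and 3 genes counted outside it. The tumour cells carried MMTV-rtTA;TetO-Wnt1, a pair of transgenes in which a mammary-active promoter drives a doxycycline-dependent activator and this activator drives Wnt1, and were marked with the green histone fusion H2B-eGFP. They grew orthotopically in female nu/nu mice, which lack a thymus and most T cells but keep other host cells, and all samples are titled as GFP-positive. Primary tumour cells (4 arrays, labelled untreated) came from mice on doxycycline. Residual lesion cells (3 arrays, labelled as Wnt1 inhibition) were taken 28 days after the drug was withdrawn, and recurrent tumour cells (4 arrays, the same treatment label) from tumours that had grown back. The age of the mice and the number of tumour lines, clones or animals behind the arrays are not given in the sources used here. Each array gave 1 RMA log2 signal per gene, so a difference of 1 is a 2-fold difference, and precision is limited by how few arrays each group has.

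Complex I is the entry point of the respiratory chain: it takes electrons from NADH, passes them along a chain of iron-sulfur clusters to ubiquinone and pumps protons across the inner mitochondrial membrane. Its matrix arm holds the redox centres, its membrane arm holds the proton pumps, and accessory subunits surround a core that is conserved from bacteria. Assembly factors help to build the complex from its parts and are absent from the finished enzyme. The core subunits of the membrane arm are encoded by mitochondrial DNA and were not analysed here, so the members are products of nuclear genes. They split into 7 core subunits, 9 accessory subunits of the matrix arm, 18 accessory subunits of the membrane arm and 8 assembly factors, and lie on 17 chromosomes. RefSeq lists 54 mouse symbols that start with Nduf, of which 9, Ndufs5, Ndufb1 and Ndufb4 among them, were not analysed here.

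Promoter sequences of members are shown first because NRF1, GABP, YY1 and the oestrogen-related receptors are known regulators of respiratory chain genes. RefSeq windows from 250 bases before to 50 bases after the gene start (assembly GRCm38.p6) were matched to 38 of the 45 members. The letters CGCATGCG, the core of the NRF1 palindrome, stood in the windows of 4 members (10.5% of 38), Ndufaf5, Ndufa8, Ndufaf4 and Ndufa11, against 2.07% of all 27025 genes with a window and 4.10% of those above background on the arrays. These 4 windows are printed because Ndufaf5, the member with the smallest p, and Ndufa8 are among them. Each is 100 bases on the strand of its gene, 5′ to 3′, with the NRF1 letters in capitals. The windows of Ndufaf5 (chr2:140170571-140170670, plus strand), Ndufa8 (chr2:36049314-36049413, minus strand) and Ndufa11 (chr17:56717687-56717786, plus strand) run from 75 bases before the gene start to the first 25 bases of exon 1. That of Ndufaf4 (chr4:24897958-24898057, plus strand) lies wholly in the sequence before the start.
Ndufaf5: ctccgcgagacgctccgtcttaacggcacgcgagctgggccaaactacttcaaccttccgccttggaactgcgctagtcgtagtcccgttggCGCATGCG
Ndufa8: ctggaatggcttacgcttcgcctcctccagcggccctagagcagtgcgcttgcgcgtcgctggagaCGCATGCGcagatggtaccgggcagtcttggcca
Ndufaf4: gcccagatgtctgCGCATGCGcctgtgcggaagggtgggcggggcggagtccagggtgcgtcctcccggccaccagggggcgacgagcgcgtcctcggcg
Ndufa11: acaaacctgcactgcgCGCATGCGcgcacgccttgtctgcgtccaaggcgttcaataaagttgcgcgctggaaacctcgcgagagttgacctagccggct

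Counted from the gene start, the NRF1 letters began at base 18 of the transcript in Ndufaf5, and at positions -9 in Ndufa8, -112 in Ndufaf4 and -59 in Ndufa11. The other letters were searched on both strands in the same way. AAGATGGC, a YY1 core, was held by 8 members (21.1%), against 3.19% of all genes and 4.97% of genes above background. In each of the 8 (Ndufs4, Ndufs6, Ndufs7, Ndufa3, Ndufa9, Ndufb8, Ndufc1 and Ndufaf8) the letters read on the strand of the gene and began between base 11 and base 39 of the transcript. CCGGAAG, an ETS and GABP core, stood in 6 members (15.8%: Ndufs3, Ndufs8, Ndufb6, Ndufb7, Ndufaf1 and Ndufaf8), against 9.93% of all genes and 18.9% of those above background. In Ndufaf8, which held both, the ETS and YY1 letters did not overlap. AAGGTCA, a site of the oestrogen-related receptors, stood in 1 member, Ndufb2 (2.63%), against 5.38% and 3.75%. These are matches of letters and were not tested for binding.

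The arrays were alike in their centre and differed in their spread. The median over all named genes lay between 4.35 and 4.45, while the interquartile range lay between 3.57 and 3.60 for the residual group, between 3.77 and 3.84 for the primary group and between 3.71 and 3.78 for the recurrent group. The 95th percentile of 1066 olfactory receptor genes, which mammary cells are not known to use, lay between 3.96 and 4.38 and served as the background level. This level was highest on the residual arrays, at 4.34 to 4.38, against 3.96 to 4.02 on primary and 4.03 to 4.09 on recurrent arrays. Of the members, 44 of 45 were above it on all 11 arrays. The exception was Ndufa4l2, a paralogue of Ndufa4 known to be induced by hypoxia, which read 3.05 to 3.68 and was above it on 0 arrays. Because the arrays of a group are not stated to come from separate animals, the p-values rest on differences among these samples alone, and those could be technical.

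Residual cells had lower signals than primary cells for 6 of the 45 complex I genes, by less than 1 log2 unit, and most of the others had estimates on the same side of 0. Of the 34 subunits 34 had an estimate below 0 and 5 were called lower, while 25 of 34 were below 0 and 0 were called when all arrays were scaled to one median and interquartile range. The median log2 fold change of the subunits was -0.37, and -0.14 after that scaling. Of the 8 assembly factors 7 were below 0 and 1 was called, with a median of -0.46. After the same scaling 7 were below 0 and 1 was called, with a median of -0.40. The scaling stretches each array about its median, so it moves signals far above the median more than signals near it. The subunits had the higher mean signal on every array, so their estimates move more. The difference between the 2 classes in their response to the scaling was not tested. Over all 45 members, 6 were called lower (13.3%), 0 higher and 39 were not called, and the median was -0.35 with 42 estimates below 0. The called genes were the assembly factor Ndufaf5, the core subunit Ndufv2 and the accessory subunits Ndufa9, Ndufv3, Ndufa10 and Ndufa8.

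Called means an adjusted p under 0.05 in limma, with Benjamini-Hochberg adjustment over all named genes. By that rule 7.61% of the 23835 genes were called lower in residual cells. Among the 13712 genes above background the share was 14.5%, when these alone were fitted, and the same 6 members were called of 44 kept by that filter. The members' share of calls was thus close to that of genes of measurable signal. Over all genes the median log2 fold change was 0.03 with 46.1% of estimates below 0, and over genes above background it was -0.06 with 55.1% below 0. Residual arrays all lay below all primary arrays for 16 members (35.6%), against 13.7% of all genes and 22.5% of those above background. At an unadjusted p under 0.05 there were 20 members (44.4%), all with estimates below 0, against 13.9% of all genes and 23.0% of those above background that were lower by that rule. Both shares were counted on the values as deposited and not on the scaled arrays. The genes above background were not matched to the members in brightness. The 6 calls became 2 without primary array 2, primary array 3, residual array 1 or residual array 2, and 3 without recurrent array 2. They became 1 under the scaling to one interquartile range or a second quantile normalization, and 10 when arrays were centred on their medians. Primary array 2 was the highest of its group for 38 of the 45 members and residual array 2 the lowest of its group for 30. With both left out, 2 members were called and 34 of 45 estimates were below 0, with a median of -0.20 for the subunits.

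**Figure D1:**
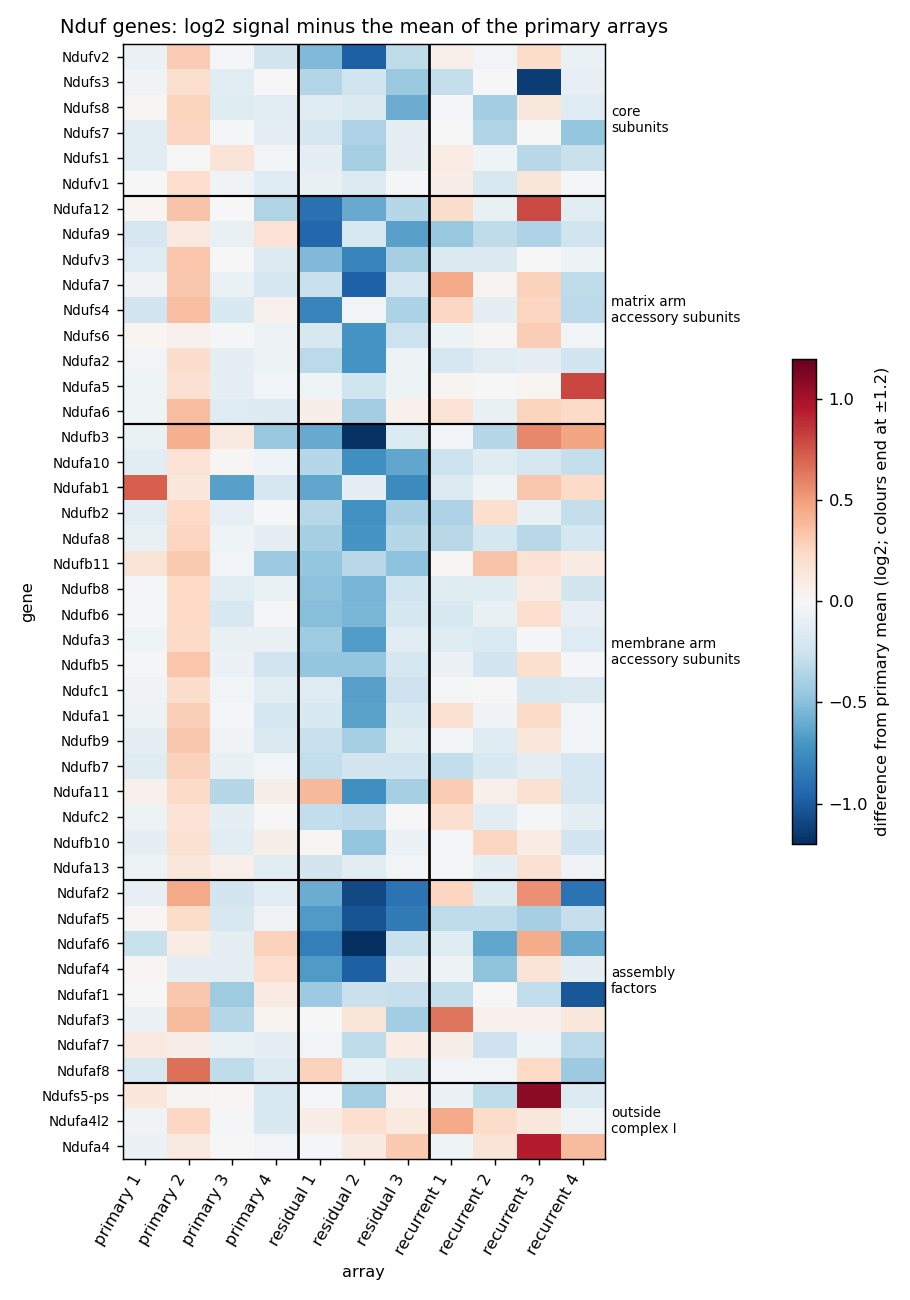
Heat map of 44 Nduf genes (rows, grouped by role) on the 11 arrays (columns, grouped by stage), coloured by the log2 signal minus the mean of the 4 primary arrays, with colours ending at ±1.2. Blue fills most of the 3 residual columns and is deepest there on residual array 2, in Ndufb3 and the assembly factors Ndufaf2, Ndufaf5 and Ndufaf6, while most of primary array 2 is red.

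**Figure D2:**
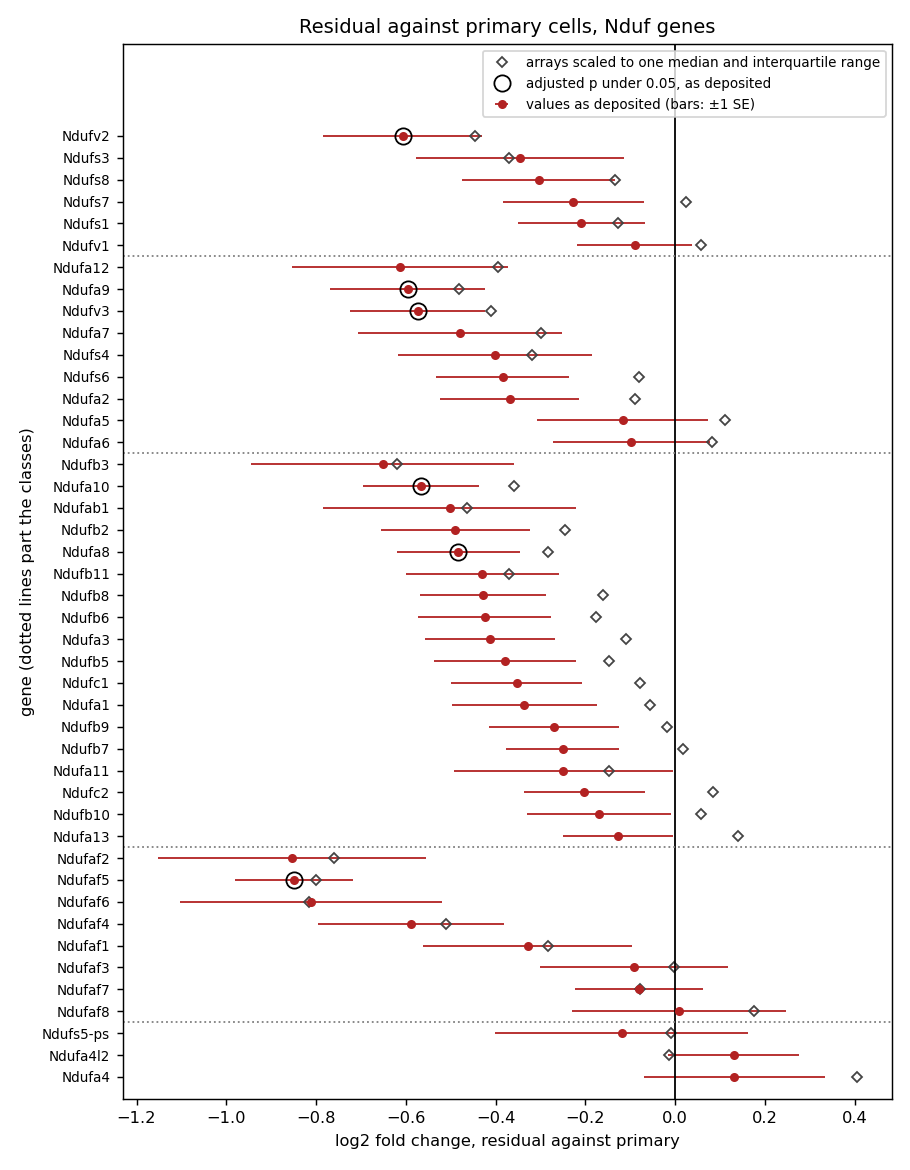
Log2 fold change of 44 Nduf genes in residual against primary cells, with red points and bars for the estimate ± 1 SE from the values as deposited and open diamonds for the same after arrays were scaled to one median and interquartile range. Black circles mark the 6 called genes. All plotted subunits lie left of 0 as deposited, and the diamonds lie to the right of most points, with 25 of the subunits' diamonds left of 0.

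The core subunits carry the redox centres of the matrix arm. Ndufv2, which holds an iron-sulfur cluster in the NADH-oxidising module, was the called one of the 7. It read 8.93, 9.31, 8.99 and 8.79 on the primary arrays, 8.47, 8.03 and 8.70 on the residual arrays, and 9.07, 8.97, 9.23 and 8.93 on the recurrent arrays. The residual arrays were the lowest and overlapped neither other group. The log2 fold change of residual against primary cells was -0.61 (SE 0.18, adjusted p = 0.0454), a 1.52-fold lower signal. The call is near the threshold and held in 6 of 18 alternatives.

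Ndufv1, the flavin-bearing partner of Ndufv2 at which NADH is oxidised, differed less between the groups. It read 8.45, 8.66, 8.42 and 8.31 on primary, 8.37, 8.29 and 8.44 on residual, and 8.54, 8.27, 8.60 and 8.44 on recurrent arrays. Its residual against primary estimate was -0.09 (SE 0.13, adjusted p = 0.728), with a 95% interval from -0.37 to 0.19. Its range over the 11 arrays, 0.39, was the smallest of the members.

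Ndufs7 helps to form the pocket in which ubiquinone is reduced. It read 10.23, 10.61, 10.33 and 10.24 on primary, 10.15, 9.98 and 10.24 on residual, and 10.36, 9.99, 10.34 and 9.89 on recurrent arrays, with a residual against primary estimate of -0.23 (adjusted p = 0.411). Residual array 3 reached the lowest primary arrays, so the groups overlapped.

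Ndufs1, the subunit with the longest run of iron-sulfur clusters, read 7.30, 7.42, 7.58 and 7.39 on primary, 7.31, 7.03 and 7.30 on residual, and 7.51, 7.37, 7.09 and 7.15 on recurrent arrays. Ndufs8, an iron-sulfur subunit of the ubiquinone module, read 8.98, 9.24, 8.82 and 8.84 on primary, 8.82, 8.80 and 8.38 on residual, and 8.96, 8.57, 9.11 and 8.82 on recurrent arrays. The groups overlapped in both, and the residual against primary estimates were -0.21 for Ndufs1 (adjusted p = 0.398) and -0.30 for Ndufs8 (adjusted p = 0.302). Ndufs3, a core subunit without a cluster, read 5.54, 5.78, 5.46 and 5.58 on primary, 5.24, 5.35 and 5.14 on residual, and 5.30, 5.59, 4.46 and 5.49 on recurrent arrays. All residual arrays of Ndufs3 were below all primary arrays, but with an SE of 0.23 its estimate of -0.34 did not pass (adjusted p = 0.397), and recurrent array 3 stood apart below the other recurrent arrays. The median estimate of the 7 core subunits was -0.23.

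The accessory subunits of the matrix arm had a median of -0.40, with 9 of 9 estimates below 0 and 2 called. Ndufv3, a small subunit of the NADH-oxidising module, read 8.89, 9.38, 9.05 and 8.88 on primary, 8.52, 8.26 and 8.65 on residual, and 8.88, 8.88, 9.04 and 8.99 on recurrent arrays. Its residual arrays lay below all others, with a log2 fold change of -0.57 against primary cells (SE 0.15, adjusted p = 0.0283), or 1.49-fold. Ndufa9, a nucleotide-binding subunit at the joint of the arms, read 8.00, 8.33, 8.12 and 8.38 on primary, 7.27, 8.02 and 7.56 on residual, and 7.76, 7.91, 7.84 and 7.97 on recurrent arrays. Here residual array 2 reached into the primary range, and the log2 fold change was -0.60 (SE 0.17, adjusted p = 0.0444). The call of Ndufv3 held in 10 of 18 alternatives and that of Ndufa9 in 5.

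The other matrix arm subunits did not pass. Ndufa12, the paralogue of the assembly factor Ndufaf2, had an estimate of about the size of the called subunits with a wider error, -0.61 (SE 0.24, adjusted p = 0.130). Ndufs4, whose loss is known to cause a Leigh-like disease in mice, was at -0.40 (adjusted p = 0.279), and Ndufs6, a zinc-binding subunit, at -0.38 (adjusted p = 0.124). The residual arrays of Ndufs6 read 11.19, 10.68 and 11.13, below all primary arrays at 11.32 to 11.44. Ndufa5 and Ndufa6 had the smallest estimates of this class, -0.12 and -0.10.

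In the membrane arm 18 of 18 accessory subunits had estimates below 0, with a median of -0.40, and 2 were called. Ndufa10, a subunit with the fold of a nucleoside kinase, read 9.68, 9.99, 9.83 and 9.77 on primary, 9.48, 9.08 and 9.19 on residual, and 9.56, 9.67, 9.60 and 9.53 on recurrent arrays. The groups did not overlap, with residual lowest and primary highest, and the log2 fold change of residual against primary cells was -0.57 (SE 0.13, adjusted p = 0.0144). That call held in 13 of 18 alternatives. Ndufa8, a cysteine-rich subunit on the intermembrane face whose promoter is printed above, read 9.54, 9.88, 9.58 and 9.51 on primary, 9.23, 8.92 and 9.29 on residual, and 9.29, 9.41, 9.29 and 9.41 on recurrent arrays. Its log2 fold change was -0.48 (SE 0.14, adjusted p = 0.0394), and the call held in 6 of 18 alternatives.

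Ndufb3, a small membrane arm subunit, had the lowest estimate among the subunits, -0.65, with an SE of 0.29 and no call (adjusted p = 0.187). Its residual arrays ran from 5.61 to 6.64 and overlapped the primary arrays at 6.34 to 7.23. Ndufa3, Ndufb2, Ndufb6 and Ndufb8 had adjusted p from 0.0698 (Ndufb8, -0.43) to 0.0914 (Ndufa3, -0.41) and were the 4 genes added when arrays were centred on their medians. Ndufa13, also known as a regulator of cell death, had the smallest estimate of the class at -0.13. Ndufa11, whose promoter also held the NRF1 letters, was at -0.25 (adjusted p = 0.587), with residual arrays spread from 7.04 to 8.17.

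The estimates of the assembly factors ran from -0.85 to 0.01, with SEs from 0.13 to 0.30, and 1 of the 8 passed. Ndufaf5, an enzyme that hydroxylates an arginine of Ndufs7 during early assembly, had the smallest p of the members. It read 7.26, 7.46, 7.05 and 7.20 on primary, 6.57, 6.21 and 6.41 on residual, and 6.94, 6.94, 6.84 and 6.96 on recurrent arrays. The 3 groups did not overlap, with residual lowest, recurrent between and primary highest. Its mean was 7.24 ± 0.17 for the primary arrays, 6.39 ± 0.18 for the residual arrays and 6.92 ± 0.05 for the recurrent ones (SD, n = 4, 3 and 4). Residual cells were 1.80-fold lower than primary cells, a log2 fold change of -0.85 (SE 0.13, adjusted p = 0.00161), and the gene was called in 18 of 18 alternatives, with estimates from -0.93 to -0.74.

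Ndufaf8, the partner that stabilises Ndufaf5, did not go with it. It read 8.50, 9.35, 8.38 and 8.52 on primary, 8.96, 8.61 and 8.52 on residual, and 8.65, 8.66, 8.93 and 8.26 on recurrent arrays. The groups overlapped, and the residual against primary estimate was 0.01 (SE 0.24, adjusted p = 0.989), with a 95% interval from -0.51 to 0.53. The difference between the estimates of Ndufaf5 and Ndufaf8 was not tested.

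Ndufaf2, a late assembly factor that occupies the place of Ndufa12, had an estimate as low as that of Ndufaf5 with a larger error. It read 7.91, 8.46, 7.78 and 7.87 on primary, 7.41, 6.92 and 7.12 on residual, and 8.26, 7.83, 8.55 and 7.12 on recurrent arrays. Its residual arrays lay below all primary arrays, but the log2 fold change of -0.85 (SE 0.30) did not pass (adjusted p = 0.0891), and recurrent array 4 read like a residual array. Ndufaf6, an early assembly factor of the ubiquinone module, read 6.02, 6.38, 6.18 and 6.56 on primary, 5.46, 4.94 and 6.01 on residual, and 6.14, 5.67, 6.73 and 5.68 on recurrent arrays. Residual and primary arrays were parted by a narrow gap, and the estimate was -0.81 (SE 0.29, adjusted p = 0.0981).

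Ndufaf3 and Ndufaf4 bind each other in early assembly of the matrix arm, and neither passed. The difference between their estimates was not tested. Ndufaf4 read 7.63, 7.50, 7.50 and 7.81 on primary, 6.93, 6.63 and 7.50 on residual, and 7.55, 7.13, 7.76 and 7.50 on recurrent arrays, with an estimate of -0.59 (SE 0.21, adjusted p = 0.0910). Residual array 3 reached the primary level. Ndufaf3 read 7.36, 7.80, 7.08 and 7.47 on primary, 7.42, 7.57 and 7.01 on residual, and 8.07, 7.48, 7.48 and 7.55 on recurrent arrays, with overlapping groups and an estimate of -0.09 (adjusted p = 0.840). Without residual array 3 both Ndufaf4 and Ndufaf6 were called.

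Ndufaf1, which acts in assembly of the membrane arm, read 6.84, 7.15, 6.40 and 6.93 on primary, 6.39, 6.56 and 6.55 on residual, and 6.54, 6.83, 6.53 and 5.81 on recurrent arrays (residual against primary -0.33, adjusted p = 0.424). Ndufaf7, a methyltransferase, read 6.07, 6.02, 5.87 and 5.83 on primary, 5.92, 5.65 and 6.04 on residual, and 6.02, 5.70, 5.90 and 5.63 on recurrent arrays (-0.08, adjusted p = 0.784). In both genes residual and primary arrays overlapped.

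**Figure D3:**
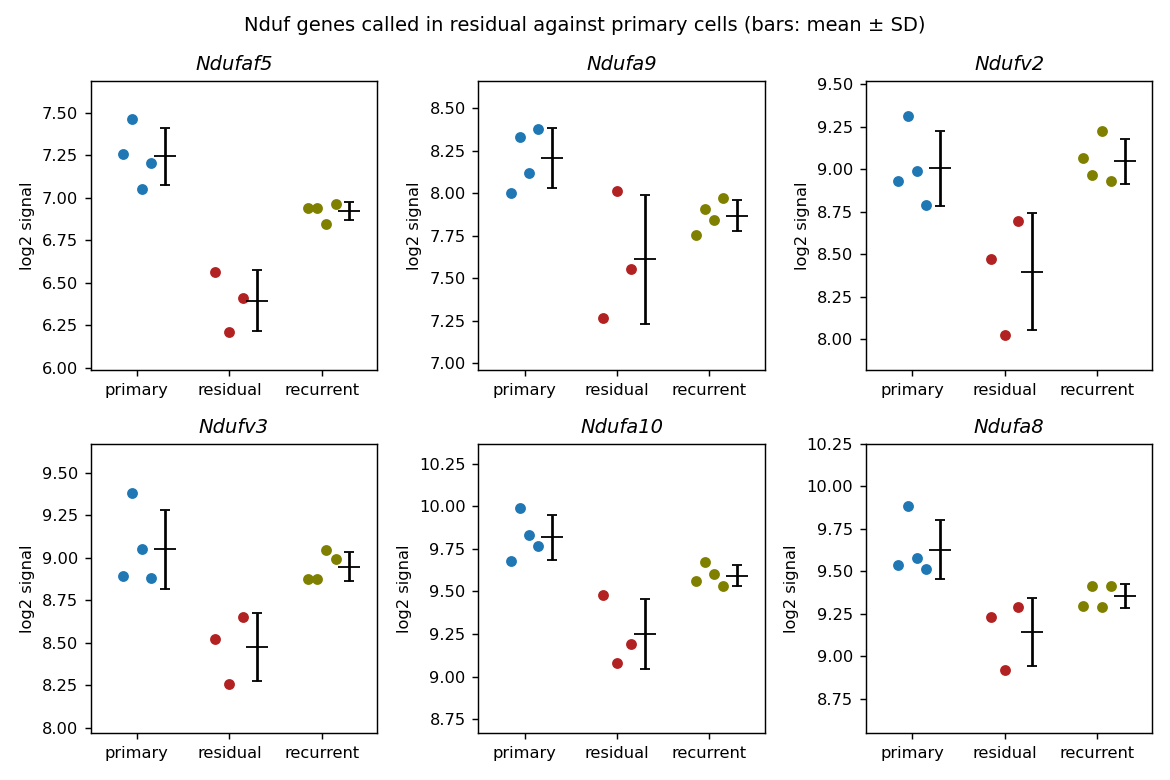
Log2 signal of the 6 Nduf genes called in residual against primary cells, 1 panel a gene, with each array as a point by group and the mean ± SD beside it (n = 4, 3 and 4). Axes differ between panels and do not start at 0. The residual points lie below all primary points except in Ndufa9, where residual array 2 at 8.02 lies above the lowest primary array at 8.00.

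The 3 members outside the complex had no call in any comparison. Ndufa4, now counted as a subunit of complex IV, read 10.45, 10.63, 10.53 and 10.49 on primary, 10.50, 10.63 and 10.84 on residual, and 10.48, 10.68, 11.47 and 10.90 on recurrent arrays, and its residual against primary estimate lay above 0, at 0.13 (adjusted p = 0.749). Ndufs5-ps, a transcribed pseudogene of a subunit gene, was at -0.12 (adjusted p = 0.844). Probes of a pseudogene can also bind RNA of its parent gene, so that value is uncertain. The background-level gene Ndufa4l2 read 3.19, 3.48, 3.21 and 3.05 on primary, 3.31, 3.43 and 3.35 on residual, and 3.68, 3.46, 3.36 and 3.19 on recurrent arrays.

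Averaged over their genes, the subunits and the assembly factors each had their lowest group mean in residual cells. The mean signal of the 34 subunits was 9.35, 9.63, 9.30 and 9.27 on the primary arrays, 9.06, 8.90 and 9.12 on the residual arrays, and 9.35, 9.30, 9.45 and 9.31 on the recurrent arrays. That of the 8 assembly factors was 7.20, 7.52, 7.03 and 7.27 on primary, 6.88, 6.64 and 6.89 on residual, and 7.27, 7.03, 7.34 and 6.81 on recurrent arrays. Residual arrays were the lowest for the subunits, and recurrent array 4 fell among them for the assembly factors. Subtracted array by array, the mean of the subunits exceeded that of the assembly factors by 2.13 ± 0.11 on primary arrays, 2.22 ± 0.04 on residual arrays and 2.24 ± 0.19 on recurrent arrays (SD, n = 4, 3 and 4). On the values as deposited these groups overlapped, so on that scale no shift of one class against the other stood out from the spread between arrays. Scaling to one median and interquartile range raises this difference on the residual arrays, whose range is narrower, and lowers it on the primary arrays. On that scale all residual arrays lay above all primary arrays, by a narrow gap, while recurrent arrays overlapped both. The shift of one class against the other thus depended on the scaling, and it was not tested. Since different probes differ in brightness, only the change of this difference between groups can be read, not its size.

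**Figure D4:**
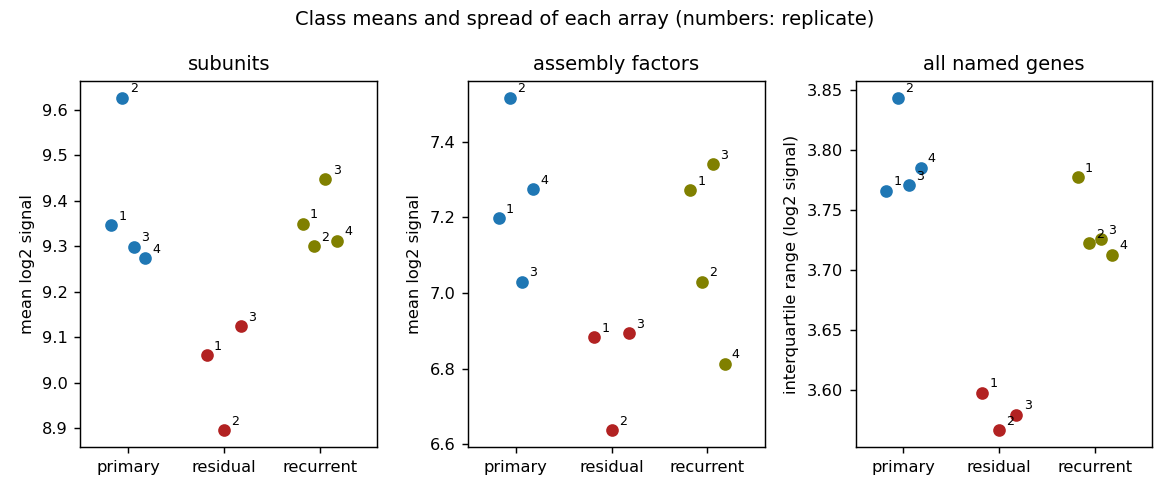
Mean log2 signal of the 34 subunits (left) and the 8 assembly factors (middle), and the interquartile range of the log2 signals of all named genes (right), 1 point an array, numbered by replicate. Axes do not start at 0. The residual arrays are the lowest in the left and right panels (8.90 to 9.12, and 3.57 to 3.60), and primary array 2 is the highest of all in each panel.

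Recurrent cells were compared with primary cells to see which differences were present in tumours that had grown back. Here 0 of 45 members were called in limma, where 1.80% of all genes were called in either direction, and 1 member (Ndufaf5) had an unadjusted p under 0.05. Estimates ran from -0.40 (Ndufaf1) to 0.36 (Ndufa4), with a median of -0.03, and the 95% interval was -0.25 to 0.25 for Ndufa13, for example, and -0.67 to 0.54 for Ndufaf2. The median was -0.02 for the subunits, with 18 of 34 below 0, and -0.13 for the assembly factors, with 7 of 8 below 0. All recurrent arrays lay below all primary arrays for 4 members, Ndufaf5, Ndufa10, Ndufa8 and Ndufa9 (8.89%), against 5.38% of all genes and 8.19% of those above background, so their number was close to that of genes of measurable signal. Their estimates were -0.32 for Ndufaf5 (adjusted p = 0.255), -0.22 for Ndufa10 (adjusted p = 0.466), -0.27 for Ndufa8 (adjusted p = 0.374) and -0.34 for Ndufa9 (adjusted p = 0.389). All 4 were also called in residual cells, in a comparison that shares the primary arrays. Of the other called genes, Ndufv2 was at 0.04 (adjusted p = 0.949) and Ndufv3 at -0.10 (adjusted p = 0.836).

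Recurrent against residual cells gave estimates above 0 for 41 of 45 members and 33 of 34 subunits, with medians of 0.29 and 0.31, while after scaling to one median and interquartile range 12 of 45 were below 0 and the subunit median was 0.11. Only Ndufaf5 was called higher, against 3.58% of all genes, at 0.53 (SE 0.13, adjusted p = 0.0380), or 1.44-fold. That call held in 5 of 18 alternatives. Leaving out any 1 of primary arrays 1 and 4, residual arrays 2 and 3, and recurrent arrays 1 to 4 ended it, as did both scalings of the arrays. Ndufv2 had the larger estimate, 0.65 (SE 0.18, adjusted p = 0.0564), and passed when dim genes were left out. All recurrent arrays lay above all residual arrays for 13 members (28.9%), against 8.18% of all genes and 13.2% of those above background. Besides Ndufaf5 these were 12 subunits, among them Ndufv2, Ndufv3, Ndufa10 and Ndufa8. That share too was counted only on the values as deposited. Ndufb3 (0.82, adjusted p = 0.142), Ndufa12 (0.81, adjusted p = 0.0787) and Ndufaf2 (0.79, adjusted p = 0.163) had the largest estimates of the members and did not pass. Over all genes the median was -0.03, and over those above background 0.03.

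Other genes of the respiratory chain were also measured in residual against primary cells. Of 12 measured assembly factors of complex I outside the Nduf names, 2 were called lower and 11 had estimates below 0, with a median of -0.29, the exception being Dmac2 at 0.17. They were Aifm1, the flavoprotein AIF that helps to import and assemble chain proteins, at -1.10 (adjusted p = 0.00122), and Tmem70 at -0.53 (adjusted p = 0.0465). Complex II had 0 of 4 called and a median of -0.37. Complex III had 3 of 8 called lower and a median of -0.47, with its Rieske iron-sulfur protein Uqcrfs1 at -0.84 (adjusted p = 0.00621), cytochrome c1 (Cyc1) at -0.68 (adjusted p = 0.00847) and the core protein Uqcrc1 at -0.65 (adjusted p = 0.0110). Complex IV had 2 of 9 called lower and a median of -0.37, Cox5a at -0.54 (adjusted p = 0.0126) and Cox7a2 at -0.50 (adjusted p = 0.0300). ATP synthase had 6 of 10 called lower and a median of -0.60, led by the c-ring gene Atp5g3 at -0.72 (adjusted p = 0.00319), the stalk subunit Atp5pb at -0.71 (adjusted p = 0.00969) and the catalytic-head subunit Atp5a1 at -0.67 (adjusted p = 0.00310). None of these lists had a member called higher. In the same fit 7.61% of all genes and 13.0% of those above background were called lower. The counts of these lists are from the values as deposited and were not repeated on the scaled arrays. The difference between complex I and the other complexes was not tested.

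Of 16 listed regulators of mitochondrial gene expression and iron supply, 1 was called lower in residual cells and 0 higher, with a median of -0.25. It was Tfrc, the transferrin receptor that brings iron into cells, at -2.39 (adjusted p = 0.00202). Tfrc was higher again in recurrent than in residual cells, by 1.78 (adjusted p = 0.0196), as were Aifm1, by 0.76 (adjusted p = 0.0192), and Uqcrfs1, by 1.02 (adjusted p = 0.00398). These 3 were the only members of the lists in this and the previous paragraph called in that comparison. In recurrent against primary cells 0 members of these lists were called.

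Markers of cell types and of division moved between the same groups. Of 6 markers of dividing cells 6 fell in residual cells and 6 rose again in recurrent against residual cells, with mean signals of 8.19 to 8.45 on primary, 4.58 to 5.31 on residual and 7.96 to 8.33 on recurrent arrays. Of 6 fibroblast markers 6 rose in residual and 4 in recurrent against primary cells, with mean signals of 6.65 to 7.34 on primary, 8.93 to 10.24 on residual and 9.01 to 9.82 on recurrent arrays. Of 6 macrophage markers 2 fell in residual cells, with mean signals of 5.77 to 6.41 on primary, 5.02 to 5.65 on residual and 5.29 to 6.23 on recurrent arrays. Endothelial, adipocyte and skeletal muscle markers had 0 calls in residual against primary cells, and Ckm, Myh4, Mb, Lep, Cidec, Kdr and Tek were above background on 0 arrays.

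The labelled cell type was checked against 6 epithelial markers. The keratins Krt8 and Krt18 were above background on all 11 arrays and fell in residual cells, with log2 fold changes of -1.67 (adjusted p = 0.000103) and -2.32 (adjusted p = 0.00432), while the basal keratin Krt14 rose by 2.73 (adjusted p = 0.000286). In recurrent against residual cells limma called Krt8 higher, at 1.37 (adjusted p = 0.000796), and Krt18 higher, at 1.75 (adjusted p = 0.0339). Krt14 was called lower there, at -3.28 (adjusted p = 0.000146), and 3 of the 6 markers were not called. Epcam was above background on 1 array, residual array 2, where it read 6.29. Krt5 was above it on 3 arrays and Cdh1 on 11. The part of division, of cell types other than tumour cells and of the narrower spread of the residual arrays in the lower Nduf signals was not tested. In samples of many cells, fewer cells that use a gene and less RNA per cell cannot be told apart.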

How the data were processed

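Each of the 11 samples was measured on 1 Affymetrix array. The authors deposited 1 table of log2 signals for 24479 probe sets, made with RMA and R 3.0.2, per the submitters' processing notes. RMA normalizes arrays together and compresses differences between dim signals. The genome build and version of the probe annotation are not given in the sources used here.

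Symbols came from the platform's table for 23281 probe sets and from RefSeq (GRCm38.p6) for 556, while 642 stayed unnamed. For 2 symbols with 2 probe sets the brighter was kept. No further scaling was applied to the log2 values, which span 1.10 to 13.3. Groups came from the labels.

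One limma 3.58.1 model (R 4.3.3) with 3 groups was fitted to 23835 genes, with 8 residual and 3.46 prior degrees of freedom, two-sided tests and Benjamini-Hochberg adjustment, and was tested on simulated data. The filter on dim genes kept 13712, those that exceeded on 3 or more arrays that array's background level (95th percentile over olfactory receptors). The members and lists were chosen with earlier results of these data known. Named are all called members, the core subunits, the assembly factors (1 member is counted but its values are not reported here), and up to 3 called genes of each list with the largest change, with other members added as examples after their values were seen. Alternatives rescaled or filtered the arrays, changed the model or threshold, or left out each array. Figures used matplotlib 3.10.9.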

Additional observations from a re-analysis of the deposited data

Results flagged for a closer look

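Some arrays stood apart from the rest of their group. In 94 groups of 4 arrays (a gene or class mean in primary or recurrent cells) the gap from the extreme array to its neighbour was set against the group's range by Dixon's criterion, and 5 exceeded it, where chance gives about 4.7. The residual group, with 3 arrays, was not examined in this way. Ndufa3 read 11.59 on primary array 2, with the other primary arrays at 11.27 to 11.31, and 11.34 on recurrent array 3, with the others at 11.19 to 11.22. Ndufa5 read 10.68 on recurrent array 4 against 9.87 to 9.91 on the others. Ndufaf3 read 8.07 on recurrent array 1 against 7.48 to 7.55. Ndufaf8 read 9.35 on primary array 2 against 8.38 to 8.52. None of these 4 genes was called in any comparison.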

How the results depend on the processing

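The count of 6 Nduf genes called in residual against primary cells became 10 with arrays centred on their medians (9 of them subunits, against 5), 1 with arrays scaled to one median and interquartile range or quantile-normalized again, 3 with only the 2 groups compared, and 1 at an adjusted p under 0.01. Subunits called were 0, 0, 1 and 0 in these last 4 settings, and assembly factors 2 instead of 1 with only the 2 groups. Leaving out 1 array gave 2 to 7 genes, 1 to 4 subunits and 1 to 3 assembly factors. With primary array 2 and residual array 2 both left out, chosen after seeing the data, 2 genes and 1 subunit were called. The median of the subunits went from -0.37 to -0.14 with arrays scaled to one interquartile range and to -0.20 without those 2 arrays. In recurrent against residual cells the 1 called gene became 0 with either scaling, with only the 2 groups, at the stricter threshold and without those 2 arrays, and 2 with dim genes left out. Subunits called became 1 instead of 0 with dim genes left out and with a trend in the prior, and the assembly factor was 0 in the same settings as the total and with the trend. Leaving out 1 array gave 0 to 2 genes, 0 to 1 subunits and 0 to 1 assembly factors, and the subunit median went from 0.31 to 0.11 and 0.18 with the scalings. The mean of subunits minus assembly factors in residual cells went from 2.22 to 2.30 with arrays scaled to one interquartile range. In primary cells it went down from 2.13, so that all residual arrays then lay above all primary arrays. In recurrent against primary cells 0 members were called in every setting run. No value changed sign where it was called. The cause of these changes was not tested.

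With the replicate block, 1 gene (Ndufaf5), 0 subunits and 1 assembly factor were called in residual against primary cells, and 0 genes in recurrent against residual cells. Arrays of the same number did not deviate together (r from -0.08 to 0.02), so the numbers were not taken to pair samples.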
